A study of Sus scrofa with 4 samples.

Results

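Predicted mature miRNAs are hairpin products that the authors' prediction step found in pig hippocampus beyond the annotated pig miRNAs, and 96 of them were measured well enough to describe. Members were the rows of the table of predicted miRNAs named mature whose reads reached 10 reads per 1000000 annotated miRNA reads in at least 1 of 4 libraries, with repeated annotated rows of miR-9, miR-218 and miR-490 counted once. They are 96 of 688 predicted mature rows, in a series of 1373 annotated and predicted rows. The members were thus chosen by their reads in these same libraries, and their levels are given as a description. Each is named below by the number the authors gave its hairpin.

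The samples were hippocampal tissue from newborn piglets of the Chinese Rongchang breed, with a genotype labelled wide type. Per the labels, 8 littermates, 4 females and 4 males, were split into 4 untreated controls and 4 piglets injected into muscle with 200 mg iron dextran on days 3 and 4 after birth to induce oxidative stress. Iron dextran is an injectable iron-sugar complex. Small RNA was sequenced from the ventral and the dorsal hippocampus of each treatment, with 1 library for each of the 4 groups. Tissue was mixed before RNA extraction and how many piglets entered each pool is not stated, so no group has a replicate, and a littermate's or a pool's own variation cannot be told apart from the treatment or the region.

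A miRNA is cut from a hairpin transcript, first by Drosha in the nucleus and then by Dicer in the cytoplasm. One strand of the resulting duplex, the mature strand, is usually loaded into an Argonaute protein and pairs with target mRNAs through its seed. The other, the star strand, is usually degraded, so reads from both strands of a hairpin are a sign that prediction programs commonly look for. A predicted miRNA is a candidate, and the deposited tables assign the numbered members no function.

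Sequences of the predicted miRNAs themselves were not analysed here. To show which annotated miRNAs had the profiles nearest to those of members 43, 333, 419, 318 and 668, the sequences of 5 of these annotated miRNAs are printed from the authors' deposited table of conserved sequences, from rows that list pig among their species. They are not the sequences of the predicted miRNAs. For 668 the nearest was miR-190b, which is not printed, and miR-182 came next. Bases 2 to 8, the seed, are in capitals.
miR-183: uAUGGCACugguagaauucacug
miR-96-5p: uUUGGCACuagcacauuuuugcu
miR-182: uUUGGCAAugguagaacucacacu
miR-142-3p: uGUAGUGUuuccuacuuuaugg
miR-34c: aGGCAGUGuaguuagcugauugc
miR-183, miR-96-5p and miR-182 come from 1 genomic cluster best known from sensory epithelia. Of the 7 seed bases, 1 differs between miR-183 and miR-96-5p and 1 between miR-96-5p and miR-182. miR-142-3p is known from blood cells, and miR-34c from ciliated cells and p53 signalling.

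The libraries held 11396809 to 13839556 annotated miRNA reads after repeats were counted once. Levels are given as CPM, reads per 1000000 after TMM scaling, which adjusts libraries for differences in composition. A level of 3 reads equals 0.207 to 0.282 CPM. Sets of 4 values follow 1 order: ventral and dorsal tissue of the controls, then ventral and dorsal tissue of the iron piglets. Brain miRNAs were abundant: 9 of 9 annotated neuron-enriched rows, among them miR-9 and miR-124a, summed to between 239423 and 269026 CPM. The liver list, miR-122, miR-192, miR-194a and miR-194b-5p, summed to 103, 99.5, 152 and 178 CPM, nearly all of it miR-192 and miR-194a, and was higher in both iron libraries.

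One member held most of the members' reads. Predicted miRNA 467 stood at 19798 and 14145 CPM in ventral and dorsal control tissue and 16159 and 23396 CPM in iron tissue. It was highest in iron dorsal and lowest in control dorsal. By mean CPM 12 annotated miRNAs were above it. Its share of the reads of all 96 members was 59.21% (exact binomial 95% interval 59.07% to 59.35%) and 51.53% (51.36% to 51.70%) in ventral and dorsal control tissue and 55.86% (55.70% to 56.03%) and 63.56% (63.41% to 63.71%) in iron tissue. These and all intervals below cover counting error only. With 1 library for each group they hold no variation between pools or piglets. Amplified reads are not independent molecules, so the intervals can be too narrow even for counting error.

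Without number 467 the members together made up 13640 and 13304 CPM in ventral and dorsal control tissue and 12766 and 13416 CPM in iron tissue. The sums of the other 95 members thus lay within a narrow range, while 467 ranged from 14145 to 23396 CPM. Opposite differences can cancel in a sum, so the 95 were not each steady. Over all 96 members the highest level was a median of 1.46 times the lowest, against 1.65 times for 467. In each library the 96 members held 98.60% or more of all predicted mature reads.

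After 467 the levels fell steeply. Predicted miRNA 2 stood at 1635, 1666, 1583 and 2024 CPM. In the same libraries predicted miRNA 3 stood at 1288, 1565, 1348 and 1346 CPM. These were the other members above 1000 CPM on average, so 3 members reached that level, against 81 of 251 annotated miRNAs that passed the same minimum.

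Ranks 4 to 10 were held by 607, 4, 6, 550, 413, 7 and 8, with mean levels from 853 CPM for 607 to 498 CPM for 8. Predicted miRNA 607 was the steadiest of all 96, at 852, 881, 798 and 883 CPM, a highest level 1.11 times its lowest. In contrast 6 was at 808 and 565 CPM in ventral and dorsal control tissue and 653 and 870 CPM in iron tissue. Its libraries had the same order from low to high as those of 467, with a spread of 1.54-fold against 1.65-fold. Predicted miRNA 550 was highest in control dorsal, at 735 CPM, and lowest in control ventral, at 498.

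A further 22 members averaged 100 to 1000 CPM, 32 averaged 30 to 100 CPM and 39 lay under 30 CPM. The annotated miRNAs sat higher, with 95, 40 and 35 in these classes. All members had at least 8 reads in every library.

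**Figure D1:**
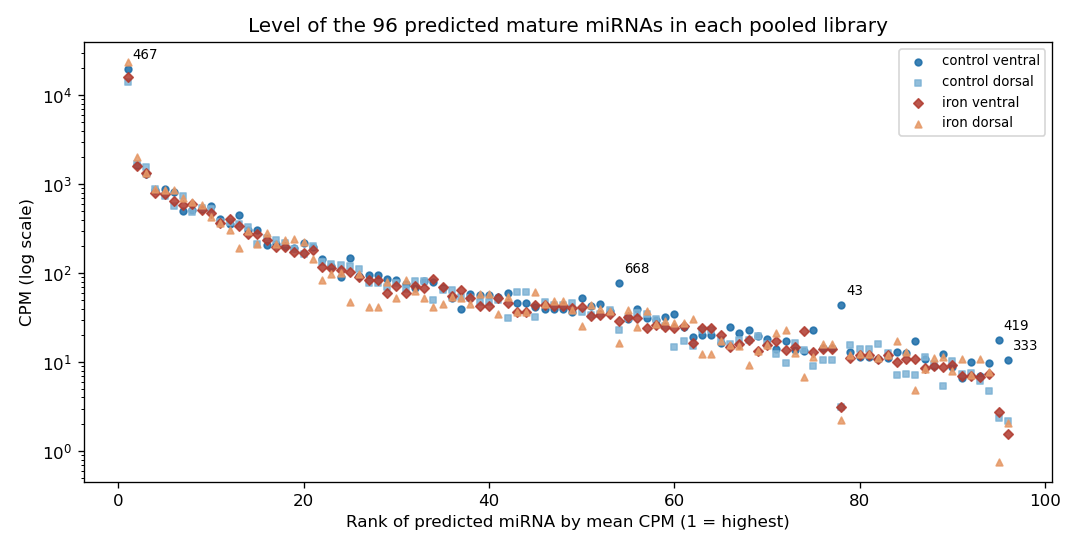
Level of each of the 96 predicted mature miRNAs in the 4 pooled libraries, in CPM on a log axis, ordered by mean CPM; each point is 1 library and numbers mark 5 members. Number 467 lies above all others, and 668, 43, 419 and 333 are marked because their control ventral point lies far above their other 3. Control ventral was the highest library for 34 of the 96.

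Most members passed the minimum in every library. Of 96, 78 reached the minimum in all 4 libraries, 6 in 3, 3 in 2 and 9 in 1. Of the 9, 5 passed through control ventral (43, 419, 333, 506 and 332), 3 through iron dorsal (48, 53 and 600) and 1 through control dorsal (41). A member that passed through its highest library alone had to differ between libraries to some degree, which touches the calls of 43, 419, 333 and 332 below.

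The members just inside the minimum were 600, 53 and 332, with highest values of 10.003, 10.178 and 10.188 reads per 1000000 annotated reads. Just outside were 618, 297 and 661 at 9.97, 9.90 and 8.47. Predicted miRNA 332 had 141, 59, 91 and 81.5 reads. The excluded 618 had 138, 48, 90 and 82, and 297 had 137, 56, 87 and 73.5. The minimum thus passed between rows with almost the same reads.

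Several members cannot be separated by their reads. There were 7 pairs with identical reads in all 4 libraries: 18 and 19, 24 and 25, 32 and 33, 37 and 38, 321 and 414, 472 and 564, and 475 and 486. The 96 members therefore hold 89 distinct read profiles. Members with whole reads in every library numbered 50 and those with a fraction in at least 1 library 46. How the authors divided reads among rows is not stated, so the levels of the members with fractions are uncertain.

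The star strand, which the rule did not use, was listed for 64 of 96 members. Its share of a hairpin's mature and star reads over the 4 libraries had a median of 2.95% among the 64; it was under 1% for 19, at least 10% for 16 and at least 40% for 3. The dominant member 467 had 6.5 star reads beside 909803 mature reads. At the other end stood 5, 28 and 41, whose star strands held 44.1%, 43.7% and 43.5% of reads.

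Predicted miRNA 5 kept both strands at similar shares, with 45.7% (44.8% to 46.6%) and 44.6% (43.5% to 45.7%) star reads in ventral and dorsal control tissue and 42.5% (41.3% to 43.6%) and 40.7% (39.03% to 42.3%) in iron tissue. Predicted miRNA 28 had 47.3% (44.4% to 50.2%), 46.4% (42.88% to 49.99%), 47.5% (43.9% to 51.1%) and 29.2% (25.8% to 32.9%) in the same order. For 28 the iron dorsal share lay below the other 3, which overlapped. For 413 the share was 36.0% (35.1% to 36.9%) in control ventral and 23.7% (22.8% to 24.6%) in iron dorsal. Other members went the opposite way. For 8 the shares were 3.8%, 3.4%, 3.7% and 7.5% (6.8% to 8.3%), and for 16 they were 8.3%, 7.9%, 9.0% and 14.7% (13.1% to 16.4%). The shares of 20 and 555 were also highest in iron dorsal. The members in this paragraph were chosen after their values were seen.

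Hairpin numbers and star rows went together. All 48 members numbered up to 300 had a star row, against 16 of the 48 numbered above 300, a border chosen after the values were seen. Over all 688 predicted mature rows the counts were 277 of 293 and 87 of 395. The mean CPM had a median of 52.3 among the members up to 300 and 34.8 among those above.

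**Figure D2:**
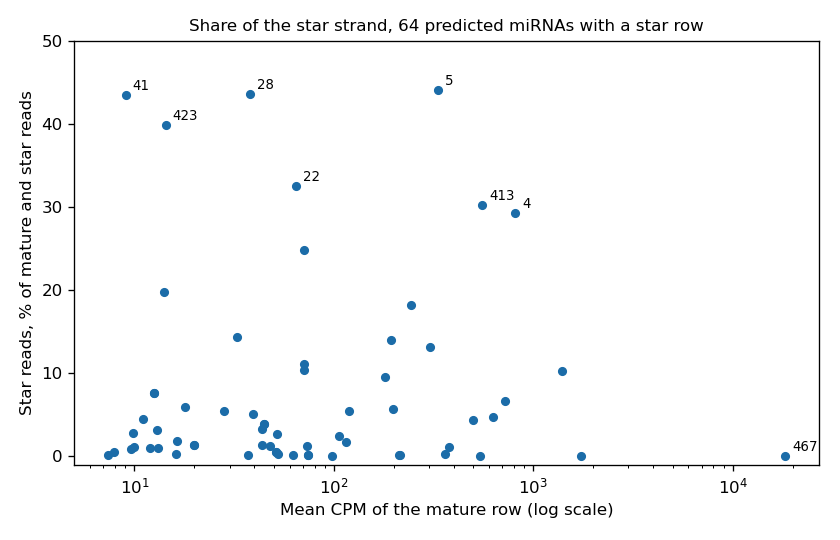
Share of star reads among the mature and star reads of a hairpin, summed over the 4 libraries, against the mean CPM of the mature row on a log axis, for the 64 members with a star row; each point is 1 member. Members 5, 28 and 41 lie above 40%, while the most abundant member, 467, lies near 0.

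Differences between libraries were counted when a ratio of CPM was at least 2-fold and its exact conditional binomial (Clopper-Pearson) 95% interval excluded 1. No replicate check is possible for these ratios, and they compare libraries, not conditions. The share of all 347 measured miRNAs (251 annotated and these 96) that met the same rule is given beside the counts below. Of the 96 members, 15 met it in at least 1 of 4 comparisons and 81 in none (6.34% of all measured miRNAs met it in at least 1, the other 7 being annotated). The highest level of a member was a median of 1.46 times its lowest. It was at least 2 times for 20 of 96 members and for 13 of 251 annotated miRNAs; the members' median level was 37.6 to 41.7 CPM in the 4 libraries, and the part of counting error in the ratio was not tested.

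**Figure D3:**
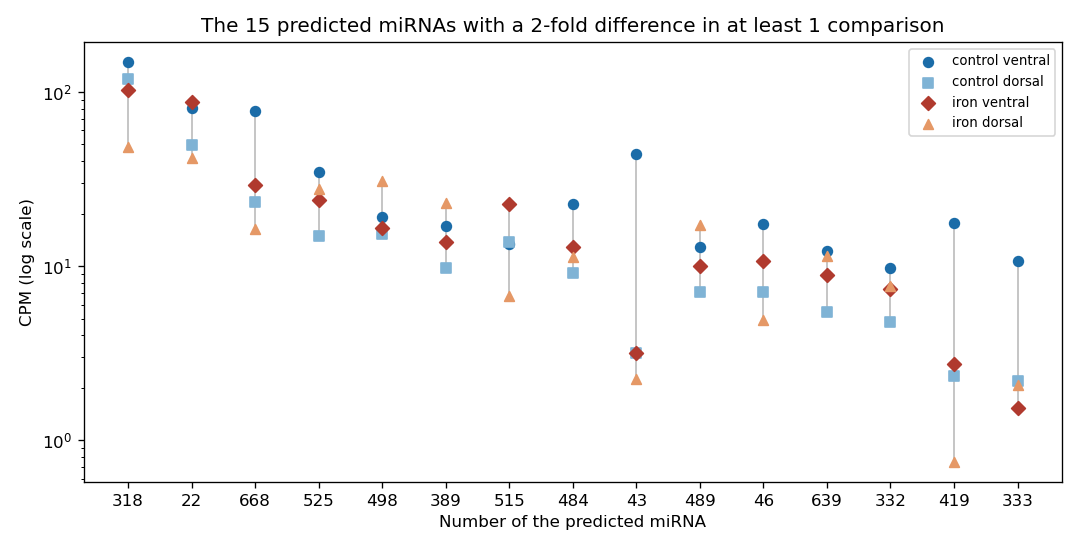
Levels of the 15 predicted mature miRNAs that differed at least 2-fold in at least 1 comparison, in CPM on a log axis, ordered by mean CPM; each point is 1 pooled library and the grey line joins the lowest and the highest. Control ventral is the highest point for 10 of the 15, against 34 of all 96 members and 64 of 251 annotated miRNAs. Among these 10, members 43, 419, 333 and 332 passed the minimum through control ventral alone. The count of 10 thus follows in part from their selection. Control dorsal and iron dorsal are the lowest for 7 each of the 15, against 21 and 33 of the 96.

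Iron against control in ventral hippocampus asks which predicted miRNAs differ after the injections in this region. In the iron library 0 of 96 members were at least 2-fold higher (0.288% of all measured miRNAs were) and 4 of 96 were at least 2-fold lower (2.31% were, and 2.59% in either direction). The 4 were 43, 333, 419 and 668, of which 43, 333 and 419 passed the minimum through control ventral alone, so the count is a description. In tissue libraries, fewer cells of a type and less of a miRNA per cell cannot be told apart.

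Predicted miRNA 43 stood at 43.9 and 3.16 CPM in ventral and dorsal control tissue and 3.16 and 2.25 CPM in iron tissue. Only the control ventral library was high. Iron ventral was lower than control ventral by 13.9-fold (10.04 to 19.7), on 39 against 636 reads.

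Predicted miRNA 419 had 256, 29, 34 and 8 reads, or 17.7, 2.35, 2.76 and 0.751 CPM. Iron ventral was 6.41-fold lower (4.47 to 9.45) than control ventral. Predicted miRNA 333 had 154, 27, 19 and 22 reads, or 10.6, 2.19, 1.54 and 2.07 CPM, and was 6.90-fold lower (4.27 to 11.8) in the ventral iron library. Like 43, both were high in control ventral alone.

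The most abundant of the 4 was 668, at 77.1 and 23.2 CPM in ventral and dorsal control tissue and 29.1 and 16.2 CPM in iron tissue. It was 2.65-fold lower (2.35 to 2.99) in iron ventral. Unlike the other 3 it passed the minimum in all 4 libraries.

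For 43, 333 and 419, annotated miRNAs of the miR-183 cluster had the nearest profiles. These members passed the minimum through control ventral alone, so nearness to miRNAs high in that library follows in part from their selection. By the Euclidean distance between centred log2(CPM + 0.5) profiles over the 4 libraries, the 2 nearest of 251 annotated miRNAs were miR-96-5p and miR-183 for 43 (distances of 0.78 and 0.80), for 419 (0.59 and 0.98) and, in the other order, for 333 (0.63 and 0.94). With 4 libraries this is a description. miR-183 stood at 131, 20.1, 16.3 and 16.1 CPM, and miR-96-5p at 99.5, 16.9, 13.4 and 8.92. For 668 the nearest were miR-190b (0.94) and miR-182 (0.97), the latter at 223, 116, 97.6 and 113 CPM.

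Some other epithelial miRNAs were also highest in the control ventral library, and others were not. Of the epithelial markers listed for this check, miR-429 and miR-205 had annotated rows, both under the minimum of 10, and they summed to 6.69 CPM in control ventral and to 1.69 to 3.57 CPM in the other 3. miR-429 stood at 4.49, 0.243, 0.162 and 0.282 CPM and was highest in control ventral, while miR-205 stood at 2.21, 3.32, 1.95 and 1.41 CPM and was highest in control dorsal. The mir-8 family, which holds the epithelial miR-200 miRNAs, summed in the deposited table of conserved sequences to 148 CPM in control ventral against 13.6 to 18.2 CPM elsewhere, over listed sequences that can repeat a miRNA of several species. The mir-375 family, known from endocrine and epithelial cells, stood at 123, 99.4, 86.0 and 41.6 CPM. The mir-203 family, known from skin, stood at 88.9 CPM in control ventral and at 86.2 to 103 CPM elsewhere. Their part in the levels of 43, 333, 419 and 668 was not tested.

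**Figure D4:**
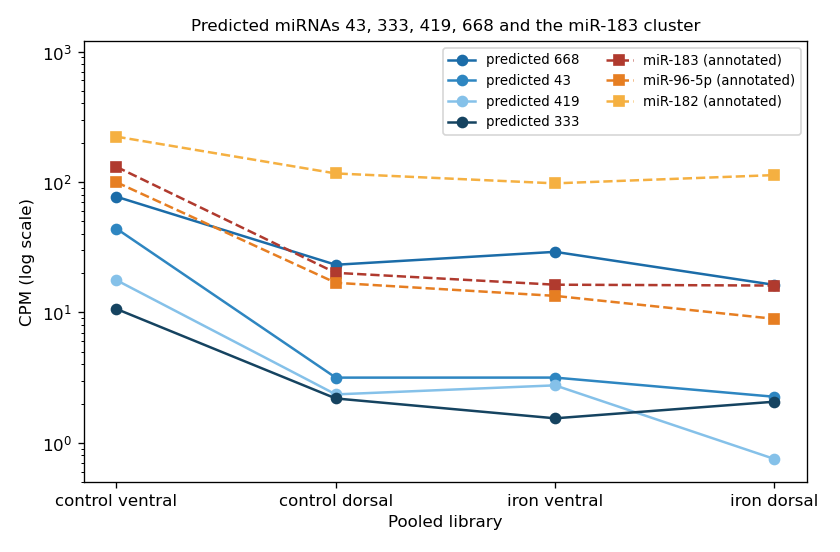
Levels of predicted miRNAs 43, 419, 333 and 668 (circles, solid lines) and of the annotated miR-183, miR-96-5p and miR-182 (squares, broken lines) in the 4 pooled libraries, in CPM on a log axis; lines join the values of 1 miRNA and carry no order. All 7 are highest in control ventral, but the 4 members were chosen for a control ventral level far above their other libraries. The annotated cluster was chosen with earlier results of these data known.

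The other 92 members stayed under 2-fold in ventral hippocampus. Over all 96, ratios above 1 numbered 30 and below 1 numbered 66, and the interval lay above 1 for 13 and below 1 for 49. Many intervals lay clear of 1 in every comparison. Those above and below 1 numbered 31 and 40 for iron in dorsal, 20 and 43 for region in controls and 30 and 28 for region in iron piglets. The same count over the annotated miRNAs is not given here. The median log2 ratio of the members was -0.16, against -0.02 over all measured miRNAs. The highest ratio, 1.68 (1.40 to 2.03), belonged to 515, at 13.5 CPM in control ventral and 22.6 in iron ventral. Of the abundant members, 467 was 1.23-fold lower (1.22 to 1.23), 6 was 1.24-fold lower (1.203 to 1.274) and 550 was higher, at 577 against 498 CPM.

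For dorsal hippocampus the same question was put to 2 other libraries. Here 4 of 96 members were at least 2-fold higher in the iron library (1.73% of all measured miRNAs were) and 3 of 96 at least 2-fold lower (0.865% were, and 2.59% in either direction). The higher members were 489, 389, 639 and 498, and the lower were 419, 318 and 515. All of these are numbered above 300, and among them only 515 has a star row. Of all 48 members numbered above 300, 16 have one.

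Predicted miRNA 489 stood at 12.8 and 7.13 CPM in ventral and dorsal control tissue and 9.98 and 17.1 CPM in iron tissue. Its dorsal iron ratio was 2.40 (1.85 to 3.13). Predicted miRNA 389 stood at 17.04, 9.72, 13.7 and 23.01 CPM, with a ratio of 2.37 (1.89 to 2.97). In both the order was control dorsal, iron ventral, control ventral and iron dorsal from low to high.

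Predicted miRNA 639 was at 12.2 and 5.43 CPM in ventral and dorsal control tissue and 8.84 and 11.5 CPM in iron tissue, with a dorsal ratio of 2.11 (1.55 to 2.89). Its profile lay nearest to that of the annotated miR-1249 (a distance of 0.17), which stood at 29.7, 14.6, 25.5 and 30.2 CPM. Control dorsal was the low library in both. Predicted miRNA 498 was at 19.05, 15.2, 16.5 and 30.9 CPM, with a ratio of 2.03 (1.69 to 2.44), and iron dorsal was its high library. With total count scaling, which lowers the dorsal iron ratios, 639 and 498 fell under 2-fold, and the counts became 2 higher and 6 lower (0.865% and 2.59% of all measured miRNAs).

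The lower members differed in depth. Predicted miRNA 318 stood at 147 and 119 CPM in ventral and dorsal control tissue and 103 and 47.9 CPM in iron tissue, and was 2.48-fold lower (2.24 to 2.75) in the dorsal iron library, on 510 against 1465 reads. Its nearest annotated profiles were miR-142-3p (0.41), at 100.5, 85.9, 74.9 and 47.1 CPM, and miR-34c (0.43), at 9409, 6910, 7028 and 4194 CPM. All 3 were lowest in iron dorsal and highest in control ventral. The erythroid list (miR-451, miR-144 and miR-486, 3 of 3 measured) summed to 1075, 837, 1019 and 861 CPM, and miR-204, known from choroid plexus, stood at 253, 199, 178 and 164 CPM. The oligodendrocyte list (2 of 3 measured) summed to 10264, 11503, 13907 and 8812 CPM, lowest in iron dorsal but highest in iron ventral. The neuron list summed to 269026, 249373, 254339 and 239423 CPM. Like 318, the sum of this list, the sum of the epithelial list and miR-204 were highest in control ventral and lowest in iron dorsal. The sums of the other marker lists did not have both. Most single rows of the neuron list did not have both either. There miR-9 was lowest in control dorsal, at 176620 CPM against 180323 in iron dorsal. miR-124a was highest in iron ventral and miR-128 lowest in control ventral, while miR-138 had both. Of the epithelial rows, miR-429 was lowest in iron ventral and miR-205 highest in control dorsal. The part of these lists in the level of 318 was not tested. Predicted miRNA 515 stood at 13.5, 13.8, 22.6 and 6.76 CPM and was 2.04-fold lower (1.54 to 2.72). Predicted miRNA 419 was 3.13-fold lower (1.40 to 7.92), on 8 against 29 reads.

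Other members came close to 2-fold in dorsal hippocampus, and those named here were chosen after their values were seen. Predicted miRNA 5, whose 2 strands are nearly equal, stood at 354 CPM in the control and 194 in the iron library, 1.82-fold lower (1.73 to 1.92). The pair 18 and 19 was 1.82-fold lower (1.63 to 2.04), from 76.5 to 42.0 CPM. For 509 the ratio was 1.94 (1.71 to 2.20), with 31.8 CPM in the control and 61.5 in the iron library. The abundant 467 had a ratio of 1.65 (1.64 to 1.66) and 6 a ratio of 1.54 (1.49 to 1.59). Across all 96, 40 ratios were above 1 and 56 below, with a median log2 ratio of -0.08 against -0.03 over all measured miRNAs.

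Across the 89 distinct profiles the ventral and the dorsal iron log2 ratios, which share no library, had a Pearson correlation of 0.16 and a Spearman correlation of -0.02, and 41 of 89 had the same sign. The points share the 4 libraries and are not replicates. In both regions 1 member was at least 2-fold lower in iron (0.288% of all measured miRNAs), 419, whose fall in dorsal hippocampus rests on 8 reads; 0 were at least 2-fold different in opposite directions.

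**Figure D5:**
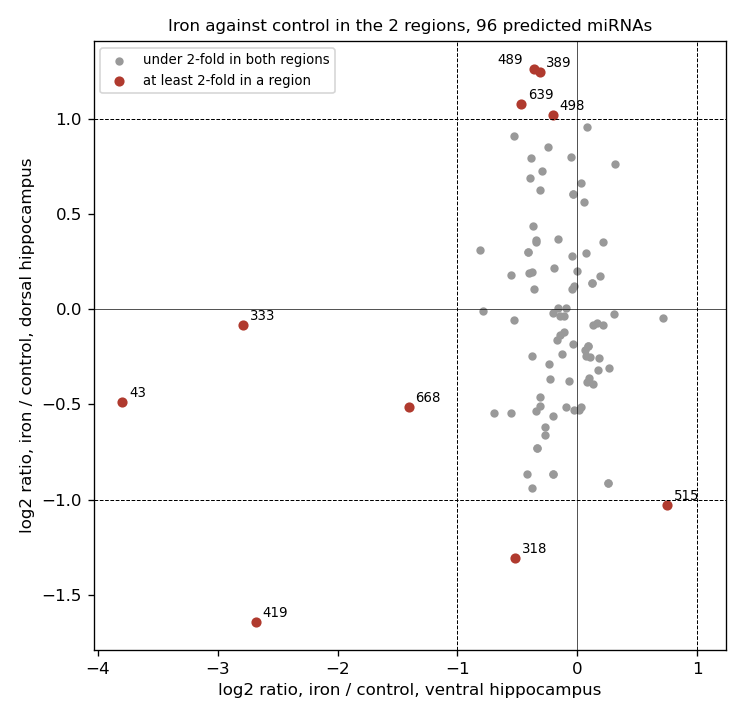
Log2 ratio of iron against control in ventral (horizontal axis) and dorsal hippocampus (vertical axis) for the 96 predicted mature miRNAs; each point is 1 miRNA, broken lines mark 2-fold, and red points with numbers are at least 2-fold in a region. Members 43, 333, 419 and 668 lie far to the left, 489, 389, 639 and 498 at the top, and 419 alone past 2-fold in both.

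Dorsal was next compared with ventral hippocampus in the 2 control libraries. In the dorsal library 0 of 96 members were at least 2-fold higher (0.288% of all measured miRNAs were) and 9 of 96 at least 2-fold lower (3.75% were, and 4.03% in either direction). This comparison shares the control ventral library with that of iron in ventral hippocampus. Beside the 4 members lower there, 43 at 13.9-fold (10.04 to 19.7), 419 at 7.52-fold (5.11 to 11.5), 333 at 4.86-fold (3.21 to 7.61) and 668 at 3.33-fold (2.92 to 3.80), the dorsal library was lower in 484, 46, 525, 639 and 332. Of the 9, 43, 419, 333 and 332 passed the minimum through control ventral alone.

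Predicted miRNA 484 stood at 22.7 and 9.08 CPM in ventral and dorsal control tissue and 12.9 and 11.3 CPM in iron tissue, a fall of 2.50-fold (2.01 to 3.13) from control ventral to control dorsal. Predicted miRNA 525 stood at 34.5, 14.8, 23.9 and 27.8 CPM, 2.33-fold lower (1.96 to 2.77) in control dorsal, which was its lowest library. Predicted miRNA 46 was 2.43-fold lower (1.90 to 3.13), 639 was 2.25-fold lower (1.69 to 3.03) and 332 was 2.03-fold lower (1.49 to 2.81), the last on 59 against 141 reads and under 2-fold with the authors' RPM (a log2 ratio of -0.99). Of all 96 members, 41 ratios were above 1 and 55 below, with a median log2 ratio of -0.10 against -0.02 over all measured miRNAs. The highest log2 ratio was 0.58.

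The same comparison of regions was made in iron piglets. In the dorsal library 0 of 96 members were at least 2-fold higher (0.288% of all measured miRNAs were) and 5 of 96 at least 2-fold lower (1.73% were, and 2.02% in either direction). They were 419 at 3.67-fold (1.67 to 9.18), 515 at 3.35-fold (2.57 to 4.399), 46 at 2.19-fold (1.58 to 3.08), 318 at 2.14-fold (1.93 to 2.38) and 22 at 2.07-fold (1.86 to 2.32).

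Predicted miRNA 22 stood at 80.4 and 49.8 CPM in ventral and dorsal control tissue and 86.7 and 41.8 CPM in iron tissue, so both ventral libraries were above both dorsal ones. Predicted miRNA 46 stood at 17.3, 7.13, 10.7 and 4.88 CPM and was at least 2-fold lower in dorsal in both treatments, as was 419. With total count scaling 10 members were at least 2-fold lower here (3.46% of all measured miRNAs). The members' median log2 ratio was 0.05, against 0.02 over all measured miRNAs, with 54 ratios above 1 and 42 below.

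The highest library was control ventral for 34 of 96 members, control dorsal for 24, iron ventral for 8 and iron dorsal for 30. Among the 251 annotated miRNAs the counts were 64, 60, 45 and 82. The lowest library was iron dorsal for 33 members, iron ventral for 25, control dorsal for 21 and control ventral for 17, against 76, 43, 57 and 75 annotated miRNAs in this order.

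Over all 4 libraries, an additive model of region and treatment in edgeR, with the quasi-likelihood test, fitted on the 347 measured miRNAs with Benjamini-Hochberg adjustment, called 0 members for iron against control and 0 for dorsal against ventral (0% of all measured miRNAs each). At an unadjusted p under 0.05 there were 5 and 8 of 96 members, a level that some rows reach when nothing differs. The share of all measured miRNAs at this level was not computed, so these counts are not a result about the members. Limma-trend and the Wald test of DESeq2 also called 0 members each. The smallest adjusted p in edgeR among the members belonged to 419 in both: 0.830 for iron at a log2 difference of -2.30, lower in 2 of 2 regions, and 0.540 for dorsal against ventral at -2.52, lower in 2 of 2 treatments. The model leaves 1 residual degree of freedom, and both regions come from the same groups of piglets, so the p-values hold for these libraries alone. That degree of freedom is the departure from additive effects. An iron ratio that differs between the regions, as for 43 or 489, thus counts as error. With total counts in place of TMM, edgeR called 318, 419 and 43 as lower in iron and 419, 43 and 668 as lower in dorsal (1.44% of all measured miRNAs in each). In that fit the estimated prior degrees of freedom were infinite, in place of 4.85. Members 419 and 43 passed the minimum through control ventral alone. Lower levels in iron and in dorsal were thus in part built into their selection, in every fit.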

How the data were processed

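Per the submitters' processing notes, reads were trimmed with cutadapt 1.2.2, and the pig builds Sscrofa 10.2 and susScr 3 are named; for the aligner, the prediction program and the quantifier the sources used here give no name. The authors deposited reads per row, which are estimated counts since many are fractions, and RPM values, per the file headers; their 8 RPM columns in the other 2 tables were not used. Reads were rounded to whole numbers. Annotated rows with shared precursors and reads within 0.1% were counted once, which left 321 of 326. TMM factors (edgeR 4.0.16) came from these rows. The minimum of 10 used totals without TMM. The additive model was checked on counts simulated without departures from additive effects, and the interval on simulated independent counts. Neither check covers such departures or amplified reads. DESeq2 1.42.0 and limma 3.58.1 were alternatives. The members and lists were chosen with earlier results of these data known. Named were the 10 most abundant members, those at least 2-fold different in a comparison, those at the edge of the minimum and the smallest adjusted p; other names were chosen after their values were seen. P-values rest on how far these libraries depart from additive effects of region and treatment, not on a spread between animals.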

Additional observations from a re-analysis of the deposited data

Results flagged for a closer look

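For 10 members iron tissue was above control in 1 region and below it in the other, each ratio's counting interval lay clear of 1, and the log2 ratios were at least 1 apart. The same was found for 7 of 251 annotated miRNAs, so 4.90% of all measured miRNAs met it. Each ratio rests on 1 pool per group, and the difference between regions was not tested. The dorsal minus ventral difference of log2 ratios was 1.62 for 489, 1.56 for 389, 1.54 for 639, 1.43 for 525, 1.18 for 568, 1.09 for 332 and 1.02 for 467, each lower in ventral and higher in dorsal iron tissue. It was -1.78 for 515 and -1.17 for 32 and for 33, which share all their reads and count as 1, each higher in ventral and lower in dorsal iron tissue. Predicted miRNA 568 stood at 59.96 and 30.96 CPM in ventral and dorsal control tissue and 45.9 and 53.7 CPM in iron tissue, and 32 at 20.3 and 23.2 CPM, then 24.2 and 12.3 CPM.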

How the results depend on the processing

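Of 68 recomputed counts of members, 47 stayed within 1.5 times the reported count. With total annotated reads or the authors' RPM in place of TMM, the dorsal iron comparison had 2 members higher and 6 lower, and dorsal against ventral in iron piglets 10 lower. Total reads also gave 3 edgeR calls for iron and 3 for region. With a minimum of 100 CPM, 26 members remained and the counts lower were 0 for iron in ventral, 1 for iron in dorsal, 0 for region in controls and 1 for region in iron piglets, with 0 higher for iron in dorsal. Without a minimum (686 rows) the counts were 9 higher and 13 lower for iron in ventral, 23 and 9 for iron in dorsal, 7 and 23 for region in controls, and 10 and 11 for region in iron piglets. Counts out of 686 rows or out of 26 members do not compare directly with counts out of 96. The share of all measured miRNAs was not computed in either setting. DESeq2 size factors, reads not rounded and identical rows counted once left every count within 1.5 times. Of 152 recomputed single ratios, 147 stayed at least 2-fold in the same direction, and 0 reversed. The other 5 fell under 2-fold: 639 and 498 for iron in dorsal with total reads and with RPM, and 332 for region in controls with RPM, which left 8 lower there. No analysis paired by piglet was possible because each group has 1 library and no numbered replicates. The additive model does compare the regions within each treatment. Leaving out a library leaves no residual degree of freedom. At 8 to 60 reads, as in 419, 333 and 332, depth limits the ratios.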
